A study of Mus musculus with 24 samples.

Results

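The comparison described here set every mouse carrying the polyQ-expanded Atxn1 allele against WT mice, whatever the state of serine S776 of ataxin-1. It covered 16 of the 24 cerebellar libraries, 12 from carriers and 4 from WT mice, each library being 1 mouse of 6 weeks. The carriers were 4 SCA1 mice (genotype sca1, with 1 polyQ-expanded knock-in allele and 1 unexpanded allele), 4 SCA1 S776A mice (genotype sca1-s776a, with that serine changed to alanine on the expanded allele) and 4 S776A double mice (genotype double, with the alanine on both the expanded and the unexpanded allele). All 12 carriers thus shared the expanded allele, and the WT mice had 2 unedited alleles. The expansion is a knock-in, so that ATXN1 is made from its own locus in every cell that normally expresses it, and the alanine was introduced by CRISPR/Cas9 editing together with synonymous changes. The SCA1 line had been backcrossed to C57BL/6J for at least 10 generations and the edited lines for at least 3. The carriers were chosen by genotype label, and the 4 WT mice by the share of fragments that fell outside annotated genes. That share was at least 9.52% in the libraries kept and at most 6.31% in the 8 libraries left out, which were 4 WT and 4 WT S776A homozygous mice of the other inferred sequencing batch.

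Ataxin-1 is a nuclear protein that acts on transcription, mostly in a complex with the DNA-binding repressor capicua (CIC), and its close relative ATXN1L binds capicua too. In spinocerebellar ataxia type 1 a longer polyglutamine tract stabilizes the protein, and Purkinje cells, the only output neurons of the cerebellar cortex, are among the cells most affected. Phosphorylation of S776 protects ataxin-1 from degradation, and alanine at that position prevents it.

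The edited codon is shown to place the allele that separates the carrier genotypes from each other. It lies in exon 8 of 8 of Atxn1, on the minus strand of GRCm38 at chr13:45557148-45557210 with its flanks, and encodes residue 751 of the 791 residues of the longest GENCODE M21 transcript, the serine that the study calls S776. The unedited reference reads as follows on the coding strand, with the serine codon in capitals.
Atxn1: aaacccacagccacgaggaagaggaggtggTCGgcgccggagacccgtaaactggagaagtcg

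The 16 libraries held 62163600 to 85575119 fragments counted on genes, with 64233070 to 71823279 in WT mice. Both strands held nearly equal gene totals (ratio 0.9995 to 1.0017), so the counts were unstranded and the strand of origin of a fragment cannot be told. Fragments that fit more than 1 gene were set aside as ambiguous (5.00% to 5.22% of all fragments) and counted for no gene. All 20 Purkinje and 14 granule cell markers passed the expression filter, their summed levels being 7877 to 11210 and 8022 to 9655 CPM over the 16 libraries, and 9 of 16 brainstem and cholinergic neuron markers did not pass it. In a principal component analysis of the 500 most variable genes, the first component (54.8% of variance) was led by choroid plexus genes such as Ttr, and carriers and WT mice overlapped on it. Summed over 13 choroid plexus markers, the level ran from 178 to 3041 CPM (gene counts scaled to library size with TMM factors) in WT mice and from 182 to 7762 in carriers. One library, S776A double replicate 1, had high Xist and almost no Y-linked transcripts, and the other 15 the reverse.

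Carriage of the expanded allele went with small decreases in many genes and increases in fewer. At the thresholds of the study (an adjusted p under 0.01 with a log2 fold change beyond 0.5 in either direction) 11 genes were lower in carriers (0.0499%) and 4 higher (0.0181%), 15 in all or 0.068% of the 22054 genes tested. With each genotype alone against the same 4 WT mice, 65 genes passed in SCA1, 0 in SCA1 S776A and 11 in S776A double mice. These counts came from a fit with all 4 genotypes, and none of the 15 passed both limits in SCA1 S776A mice alone. Some missed narrowly. In these mice 4930447F24Rik, Gm5083, Myo15, Clstn2, A830018L16Rik and A330076C08Rik passed the fold limit. Their adjusted p there was 0.0107 to 0.0134 in edgeR's test. In the pooled comparison 2833 genes (12.8%) had an unadjusted p under 0.05, 1578 lower and 1255 higher. At an adjusted p under 0.05 without a fold minimum, 141 genes fell (0.639% of those tested) and 44 rose (0.2%), by the quasi-likelihood test of edgeR, all adjusted p-values here being Benjamini-Hochberg values over every tested gene. Of the 141 genes that fell 135 were protein coding, and their median log2 fold change was -0.27. Of the 44 that rose 38 were protein coding, with a median of 0.30. The decreases ran in size from 0.17 to 1.43 and the increases from 0.18 to 0.93. The median log2 fold change of all tested genes was 0.0049. Errors given after ± with a log2 fold change are standard errors.

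Each carrier mouse could be set against each WT mouse. In 164 genes (0.744% of those tested) all 12 carriers lay below all 4 WT mice, and in 79 (0.358%) above them, together 1.1%. The groups did not overlap in 123 of the 185 genes called at an adjusted p under 0.05 (100 lower, 23 higher), nor in any of the 15 genes past the study thresholds. Since a call and a gap between groups use the same values, the counts describe how evenly the change was spread over mice and add no evidence of it.

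**Figure D1:**
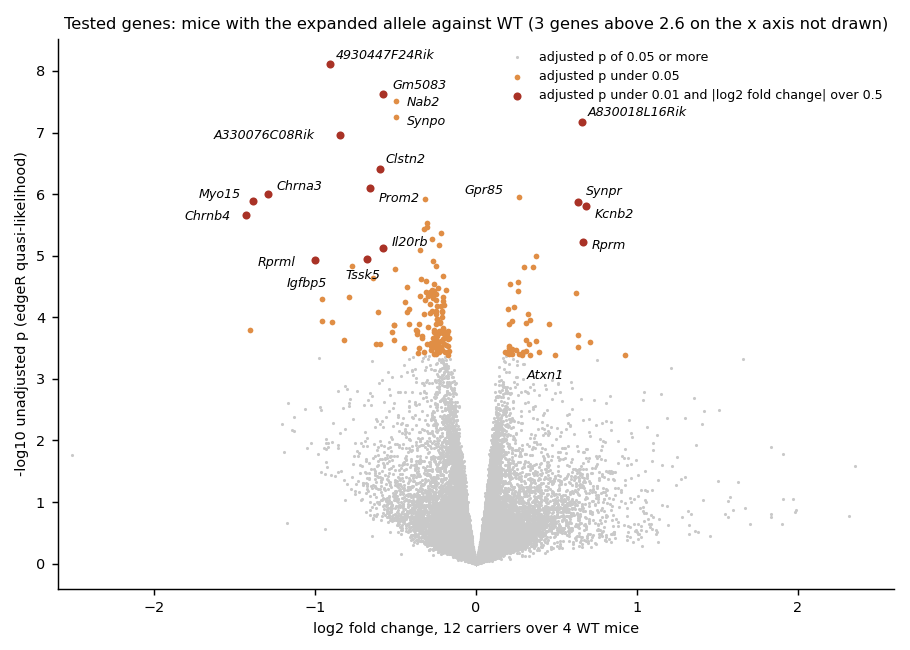
The x axis gives the log2 fold change of the 12 carriers over the 4 WT mice and the y axis the -log10 unadjusted p of edgeR's quasi-likelihood test for each tested gene. The 141 genes that fell and 44 that rose at an adjusted p under 0.05 are orange or red, and the 15 past the study thresholds red, of which Chrnb4, Myo15 and Chrna3 lie farthest to the left.

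Atxn1 itself, at chr13:45549755-45965008 on the minus strand, was slightly higher in carriers. The 4 WT mice had 51.1, 55.1, 51.1 and 50.2 CPM, and the carriers ranged from 51.4 to 71.0 with a median of 62.7. Carriers exceeded every WT mouse in 11 of 12 cases, the exception being S776A double replicate 4. The log2 fold change was 0.26 (standard error 0.06) and did not pass the test over all genes (adjusted p = 0.0587, edgeR), whereas an exact two-sided permutation test of this gene alone gave p = 0.0022 over 1820 arrangements, of which the smallest p possible was 0.00055 (adjusted p = 0.0066 over the 3 genes so tested). By genotype the difference was 0.21 in SCA1, 0.27 in SCA1 S776A and 0.29 in S776A double mice on the log2 scale, each against the same 4 WT mice. Of its partners, Atxn1l had 57.4 to 64.7 CPM in WT mice and 50.7 to 63.0 in carriers (log2 fold change -0.06, exact permutation p = 0.28). Cic had 228 to 244 CPM in WT mice and 178 to 249 in carriers (log2 fold change -0.12, exact permutation p = 0.165), and neither difference passed 0.05 in that test. In each of these genes 6 of the 12 carriers lay below every WT mouse, and for Cic 2 carriers lay above every WT mouse.

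The gene with the lowest p was 4930447F24Rik, a noncoding processed transcript at chr9:108133718-108138567. WT mice had 12.4, 13.8, 12.9 and 13.0 CPM, and carriers 5.47 to 8.83 with a median of 6.68. No carrier reached a WT mouse, and the log2 fold change was -0.90 ± 0.10 (SE; adjusted p = 0.000172, edgeR).

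Nab2, a corepressor that binds the EGR transcription factors, and Synpo, an actin-associated protein of dendritic spines, followed closely. Nab2 had 35.0, 41.9, 36.6 and 38.8 CPM in WT mice and 24.6 to 30.8 in carriers (median 26.1). Synpo had 17.5, 17.7, 15.9 and 17.8 CPM in WT mice and 10.4 to 13.6 in carriers (median 12.2). In both genes the highest carrier stayed below the lowest WT mouse. Both log2 fold changes were -0.50 (standard error 0.06), a size just short of the fold minimum of the study, with adjusted p of 0.000224 and 0.000293 in edgeR's test. Synpo was named for this position after its values were seen.

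Clstn2 encodes the postsynaptic membrane protein calsyntenin 2. WT mice had 75.0, 72.3, 62.9 and 65.7 CPM against 38.3 to 54.9 in carriers (median 44.9), and the log2 fold change was -0.60 ± 0.08 (SE; adjusted p = 0.00123, edgeR). The 4 SCA1 mice, at 38.3 to 42.6 CPM, lay below the 8 other carriers except S776A double replicate 2, which had 42.2.

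The largest decreases past the study thresholds were in genes of low level. Myo15, an unconventional myosin of sensory hair cells, had 8.90, 10.1, 7.66 and 7.47 CPM in WT mice and 2.16 to 5.37 in carriers (median 3.09). On the log2 scale it fell by 1.39 ± 0.19 (SE; adjusted p = 0.00231, edgeR). Rprml, a homolog of the cell cycle gene Rprm, had 1.60 to 1.95 CPM in WT mice and 0.540 to 1.28 in carriers (median 0.883, adjusted p = 0.00947). The remaining decreases past the thresholds were Prom2, encoding the membrane protein prominin 2 (log2 fold change -0.66), Tssk5, a kinase gene of the testis-specific serine kinase family (-0.68), Il20rb, a subunit of receptors for interleukin-20 family cytokines (-0.58), and the noncoding Gm5083 (-0.58) and A330076C08Rik (-0.85). Their standard errors ran from 0.07 to 0.12, and in each no carrier reached a WT mouse.

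Chrna3 and Chrnb4 fell together. They encode the nicotinic acetylcholine receptor subunits alpha 3 and beta 4, which assemble with each other in ganglionic receptors, and they are neighbours on the minus strand of chromosome 9 with 1592 bases between them. Chrna3 had 2.04, 2.12, 2.25 and 1.56 CPM in WT mice and 0.382 to 1.18 in carriers (median 0.871), with a log2 fold change of -1.30 ± 0.19 (SE; adjusted p = 0.00231, edgeR). Chrnb4 had 1.82, 2.79, 1.60 and 1.04 CPM in WT mice and 0.406 to 0.980 in carriers (median 0.669), with a log2 fold change of -1.43 ± 0.22 (SE; adjusted p = 0.00316). The WT mice spread widely for Chrnb4, and WT replicate 4 lay only just above the highest carrier. Of the 13 nicotinic subunits listed 10 passed the expression filter and these 2 fell, against 0.639% of all genes. Chrnb2 had a log2 fold change of -0.20 (adjusted p = 0.061) and Chrna4 of -0.28 (adjusted p = 0.273, edgeR), and neither passed. Only 6 of the 10 tested subunits were negative, with a median of -0.15 and values from -1.43 to 0.55. The third gene of this cluster, Chrna5, did not pass the filter.

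The bases upstream of both genes are shown because the pair moved together. They are the 250 bases before the RefSeq start on the minus strand of GRCm38.p6, at chr9:55026563-55026812 for Chrna3 and chr9:55048545-55048794 for Chrnb4. Neither holds the capicua octamers TGAATGAA or TGAATGGA on either strand.
Chrna3: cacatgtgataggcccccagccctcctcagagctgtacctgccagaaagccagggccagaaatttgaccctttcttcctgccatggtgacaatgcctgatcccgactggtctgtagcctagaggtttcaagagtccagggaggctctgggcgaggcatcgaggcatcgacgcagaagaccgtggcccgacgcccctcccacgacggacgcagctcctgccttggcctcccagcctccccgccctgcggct
Chrnb4: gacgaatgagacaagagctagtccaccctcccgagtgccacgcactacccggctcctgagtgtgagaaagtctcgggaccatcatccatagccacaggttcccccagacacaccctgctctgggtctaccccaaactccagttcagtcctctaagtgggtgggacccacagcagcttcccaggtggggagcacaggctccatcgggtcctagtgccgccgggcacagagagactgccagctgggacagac

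The 4 genes that rose past the study thresholds were A830018L16Rik, Synpr, Kcnb2 and Rprm. A830018L16Rik, a protein-coding gene, had 9.04, 8.10, 8.36 and 9.43 CPM in WT mice and 11.5 to 16.5 in carriers (median 13.7), with a log2 fold change of 0.66 ± 0.08 (SE; adjusted p = 0.000293, edgeR). Synpr, encoding the synaptic vesicle protein synaptoporin, had 79.7, 79.8, 67.7 and 77.0 CPM in WT mice and 90.4 to 145 in carriers (median 118), a log2 fold change of 0.64 ± 0.09 (SE; adjusted p = 0.00231). In both, the lowest carrier stood above the highest WT mouse.

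Kcnb2, the delayed rectifier potassium channel Kv2.2, had 12.9, 12.3, 11.9 and 9.17 CPM in WT mice and 15.1 to 22.2 in carriers (median 18.2). Its log2 fold change was 0.68 ± 0.10 (SE; adjusted p = 0.00243, edgeR). Rprm, a mediator of cell cycle arrest downstream of p53, had 2.14 to 2.41 CPM in WT mice and 2.81 to 4.37 in carriers (log2 fold change 0.66 ± 0.11, adjusted p = 0.00624).

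Among the smaller increases, Gpr85, an orphan G protein-coupled receptor of the brain, had 49.5 to 52.3 CPM in WT mice and 56.9 to 65.8 in carriers (log2 fold change 0.27 ± 0.04, adjusted p = 0.00231, edgeR). The log2 fold change was 0.30 for Ap1s2, a subunit of the AP-1 clathrin adaptor, 0.36 for Csmd3, 0.26 for Lrrc4c, the netrin-G1 ligand, and 0.21 for Cd200, which encodes an inhibitory ligand of microglia. Hsd11b1, whose enzyme regenerates active glucocorticoid, rose by 0.26 and the lincRNA Gm3510 by 0.62. All 6 had an adjusted p between 0.0106 and 0.0181 in edgeR's test.

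**Figure D2:**
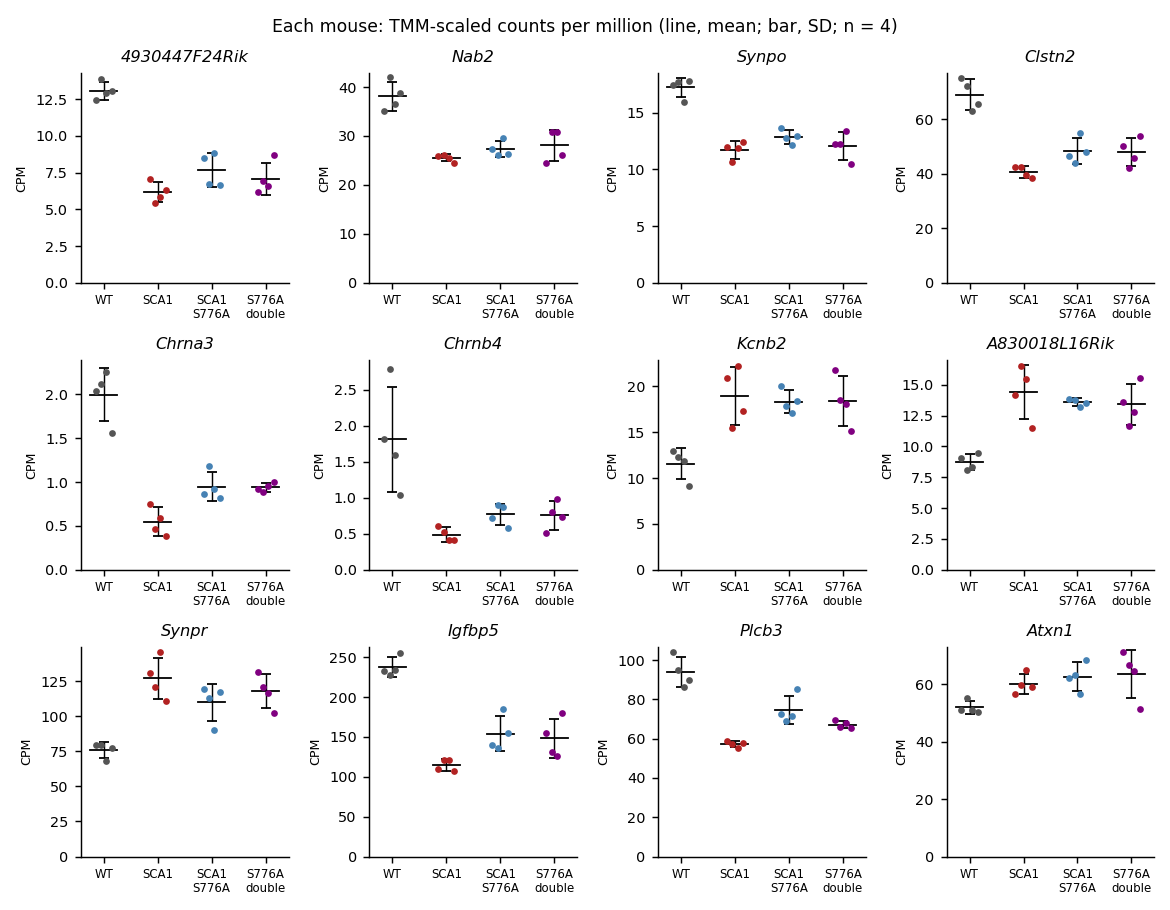
Each point is 1 mouse, the y axis gives TMM-scaled CPM from 0, the line is the mean and the bar the SD of the 4 mice of a genotype. In the panels from 4930447F24Rik to Plcb3 all 12 carriers lie on 1 side of the 4 WT mice, and in Atxn1 S776A double replicate 4 (51.4 CPM) falls among them.

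Whether a change had the same size whatever the S776 state was asked by contrasts among the 3 carrier genotypes, in a fit that also held the WT mice. Only Gm15083 differed among the 3 genotypes at an adjusted p under 0.05 (0.00453% of the genes tested, adjusted p = 0.00502, edgeR), and 1103 genes (5%) had an unadjusted p under 0.05. With the 12 carriers alone in the fit these numbers were 1 and 968, and without SCA1 replicate 1 or SCA1 replicate 2 no gene passed after adjustment (890 and 1041 at an unadjusted p under 0.05). In this joint test of the 3 genotypes none of the 185 genes called between carriers and WT passed after adjustment, whereas 48 of them (25.9%) had an unadjusted p under 0.05. In the contrast of SCA1 S776A with SCA1 mice, given below, Myo15, Stap2 and Plcb3, all among the 185, did pass. SCA1 mice stood farther from WT than the mean of the other two genotypes in 161 of the 185 (87%, against 54.2% of all genes in the direction of their own change), and S776A double mice stood farther than SCA1 S776A mice in 143 (77.3%, against 60.5%). The median log2 fold change of the genes that fell was -0.33 in SCA1, -0.23 in SCA1 S776A and -0.26 in S776A double mice, and of those that rose 0.34, 0.23 and 0.31, all against the same 4 WT mice. The smallest of the 3 changes was at least 80% of the largest in 23 of the 185 genes and under 50% in 22, with a median of 64.2%.

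The genes past the study thresholds with the highest p for a difference among carriers in edgeR's test were Kcnb2, A830018L16Rik, A330076C08Rik, Rprml and Prom2. A high p can come from a large standard error as well as from a small difference. For Rprml the log2 fold changes were -1.19 in SCA1, -1.04 in SCA1 S776A and -0.81 in S776A double mice (standard errors 0.22 to 0.23). For Kcnb2 the log2 fold change was 0.71 in SCA1, 0.67 in SCA1 S776A and 0.67 in S776A double mice (standard error 0.13 each, unadjusted p = 0.915 for a difference among them, edgeR). A830018L16Rik had 0.72, 0.64 and 0.62 in the same order (standard error 0.10 each, unadjusted p = 0.536). For the lincRNA A330076C08Rik the log2 fold changes were -0.94, -0.87 and -0.73 (standard error 0.14 each, unadjusted p = 0.336). These p-values do not show that the genotypes were alike. For Kcnb2 the difference of SCA1 S776A from SCA1 mice was -0.05 with a standard error of 0.12.

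The genes called at an adjusted p under 0.05 with the lowest p for a difference among carriers were Myo15, Stap2, Plcb3, Mmp17 and Slc16a11. Myo15 had 2.16 to 2.89 CPM in SCA1, 3.94 to 5.37 in SCA1 S776A and 2.35 to 3.48 in S776A double mice, and it was higher in SCA1 S776A than in SCA1 mice by 0.87 on the log2 scale (standard error 0.14, adjusted p = 0.0338, edgeR). Stap2, an adaptor protein of cytokine signaling, differed in the same contrast by 0.39 (standard error 0.06, adjusted p = 0.0338). Plcb3 differed by 0.38 (standard error 0.06, adjusted p = 0.0355). Mmp17, a membrane-type metalloproteinase, and Slc16a11, a monocarboxylate transporter, did not pass (adjusted p = 0.112 and 0.166). This contrast called 5 genes in all (0.0227%, with 6.08% at an unadjusted p under 0.05), that of S776A double with SCA1 mice 2 (0.00907%, with 4.71%), and that of S776A double with SCA1 S776A mice 0 (974 genes, or 4.42%, at an unadjusted p under 0.05, edgeR).

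**Figure D3:**
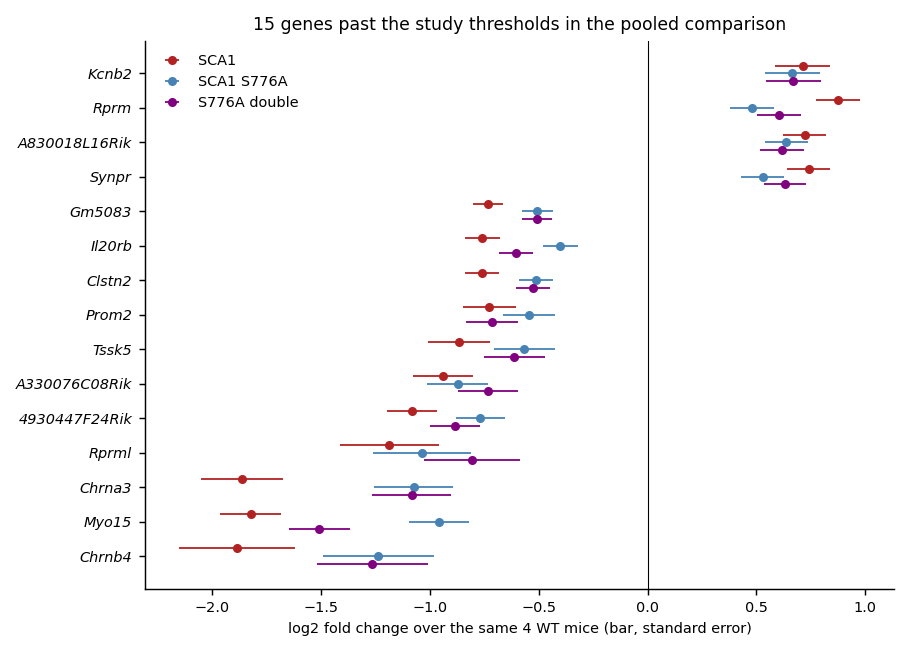
Points give the log2 fold change of each carrier genotype over the same 4 WT mice and bars its standard error, for the 15 genes past the study thresholds in the pooled comparison. All 45 points keep the sign of the pooled change, as they must in genes where no carrier overlaps the WT mice. The SCA1 points of Chrnb4 (-1.89), Chrna3 (-1.86) and Myo15 (-1.82) lie farthest from 0, and the 3 genotypes lie closest together for Kcnb2.

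Most genes of the Purkinje cell and of its glutamate and calcium signaling had negative log2 fold changes, and few passed the test singly. In bulk tissue, fewer cells of a type and less RNA per cell cannot be told apart. None of 20 Purkinje cell markers passed at an adjusted p under 0.05, while 19 had a negative log2 fold change and 11 of these an unadjusted p under 0.05 (median -0.18). By genotype the median of these markers was -0.29 in SCA1, -0.12 in SCA1 S776A and -0.14 in S776A double mice. Of all 22054 genes 10661 were negative and 1578 lower at an unadjusted p under 0.05, with a median of 0.0049. Negative values were also the more frequent among markers of inhibitory interneurons (12 of 13, median -0.11, and -0.18 in SCA1 mice) and of granule cells (10 of 14, median -0.06), and whether the lists differ was not tested. Calb1, the calbindin gene, had 1152 to 1222 CPM in WT mice and 917 to 1238 in carriers (log2 fold change -0.11, adjusted p = 0.49, edgeR). Its log2 fold change was -0.25 in SCA1, -0.08 in SCA1 S776A and -0.01 in S776A double mice.

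Signaling downstream of the metabotropic glutamate receptor mGluR1 releases calcium in Purkinje cells through phospholipase C beta and the IP3 receptor. Of 19 listed genes 2 fell, Plcb3 and Camk2b, against 0.639% of all genes, and the log2 fold change was negative in all 19 (median -0.24) with 15 at an unadjusted p under 0.05, which 12.8% of all genes reached in either direction. The list median was -0.34 in SCA1, -0.17 in SCA1 S776A and -0.21 in S776A double mice. Plcb3, the phospholipase C beta 3 gene, had 104, 95.2, 86.3 and 90.0 CPM in WT mice and 55.4 to 85.3 in carriers (median 66.8). The highest carrier, SCA1 S776A replicate 4, stood just below the lowest WT mouse, and the log2 fold change was -0.50 ± 0.09 (SE; adjusted p = 0.0111, edgeR). Camk2b, a subunit of calcium/calmodulin kinase II, had 798 to 859 CPM in WT mice and 679 to 789 in carriers (log2 fold change -0.18 ± 0.04, adjusted p = 0.0492). Plcb3 was not called without WT replicate 1 or 2 (adjusted p = 0.0871 and 0.0687), and Camk2b was called in only 3 of the 16 fits that leave out 1 mouse, in none of those without a WT mouse (adjusted p = 0.0766 to 0.271). Itpr1, the IP3 receptor, had a log2 fold change of -0.33 (adjusted p = 0.228) and Ryr1, a ryanodine receptor, of -0.26 (adjusted p = 0.0648), and neither passed.

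Of 20 ion channel genes of Purkinje cell firing 4 fell and none rose, against 0.639% and 0.2% of all genes, with a median log2 fold change of -0.14 and 13 lower at an unadjusted p under 0.05, against 12.8% of all genes in either direction. Cacna2d2, an auxiliary calcium channel subunit, had 214 to 246 CPM in WT mice and 175 to 215 in carriers (log2 fold change -0.25 ± 0.05, adjusted p = 0.0244, edgeR). Kcna2, the Kv1.2 channel, had 557 to 586 CPM in WT mice and 463 to 538 in carriers (log2 fold change -0.21 ± 0.04, adjusted p = 0.0281). Kcnc1, the Kv3.1 channel of fast-spiking neurons, had 796 to 919 CPM in WT mice and 650 to 793 in carriers (log2 fold change -0.26, adjusted p = 0.0355). The calls of these 3 genes were each lost without WT replicate 1, 2 or 3 (adjusted p = 0.0526 to 0.201, edgeR), and that of Kcnc1 also without SCA1 replicate 2, SCA1 replicate 3 or S776A double replicate 3 (0.0515 to 0.0597). Of 24 tested genes of other spinocerebellar ataxias 1 fell and none rose, against 0.639% and 0.2% of all genes.

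Igfbp5, which encodes a binding protein of insulin-like growth factors, was the only gene called among 15 of growth factor and peptide signaling, where 0.639% of all genes fell and 0.2% rose. WT mice had 233, 228, 234 and 255 CPM and carriers 108 to 185 (median 134), all carriers lying below all WT mice. The log2 fold change was -0.77 ± 0.12 (SE; adjusted p = 0.0106, edgeR), being -1.05 in SCA1, -0.62 in SCA1 S776A and -0.68 in S776A double mice. Among 27 glutamate and GABA receptor subunits 1 rose, against 0.2% of all genes. It was Grik2, a kainate receptor subunit, with 135 to 156 CPM in WT mice and 150 to 188 in carriers (log2 fold change 0.23, adjusted p = 0.0492). Igfbp5 had an adjusted p of 0.051 and 0.0562 without WT replicate 1 or 2, and Grik2 was called in only 2 of the 16 fits that leave out 1 mouse, in none of those without a WT mouse (0.096 to 0.284).

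No member passed the test in the lists of capicua targets (15 tested), granule cells (14), unipolar brush cells (7), inhibitory interneurons (13), Bergmann glia and astrocytes (14), microglia (13), oligodendrocytes (14), endothelial and mural cells (11), immediate early genes (14), cholesterol synthesis (21) or chaperones (23). In edgeR's test the count at an unadjusted p under 0.05, lower and higher, was 0 and 0 for capicua targets, 5 and 1 for granule cells, 3 and 0 for interneurons, 1 and 2 for oligodendrocytes, 1 and 0 for immediate early genes, 0 and 3 for chaperones, and 0 for the other 5 lists. Over all 22054 genes it was 1578 and 1255. The capicua targets, among them Etv1, Etv4, Etv5, Dusp6 and Spred3, had a median log2 fold change of 0.06. Spred3 had 27.1 to 30.1 CPM in WT mice and 27.1 to 33.6 in carriers, and Zic2, the granule cell gene with the lowest p, 346 to 392 and 296 to 360 (log2 fold change -0.19, adjusted p = 0.058).

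Choroid plexus markers had positive log2 fold changes in 13 of 13 genes (median 0.81), with 0 at an adjusted or an unadjusted p under 0.05 in edgeR's test. The summed level overlapped widely, with medians of 1743 CPM in WT mice, 3778 in SCA1, 3690 in SCA1 S776A and 2328 in S776A double mice. With this level as a covariate, 65 genes fell and 24 rose at an adjusted p under 0.05, and 85 of the 185 calls were kept. All 15 genes past the study thresholds kept an adjusted p under 0.05 in that fit, and its part in the other calls was not tested. Brainstem and cholinergic neuron genes had no call among the 7 tested (1 at an unadjusted p under 0.05, edgeR), and their summed level was 7.23 to 12.6 CPM in WT mice and 6.88 to 14.3 in carriers.

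**Figure D4:**
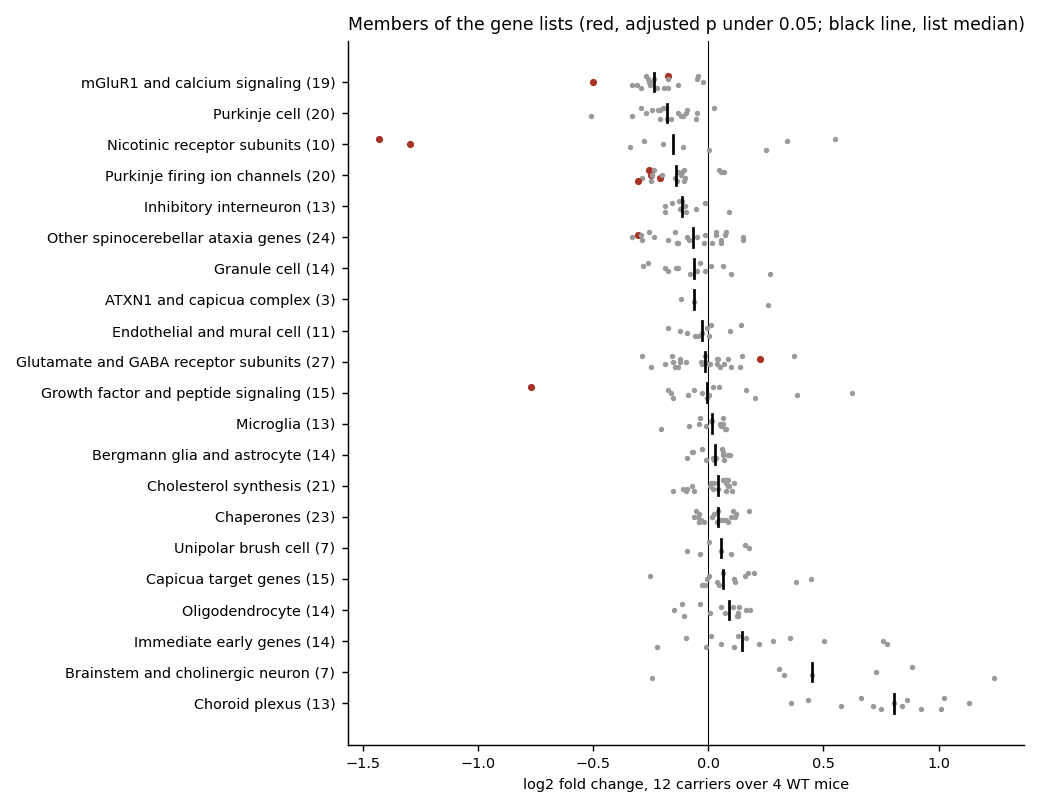
Each point is 1 tested member of a gene list (number tested in brackets), placed on the x axis by its log2 fold change of carriers over WT mice. Red points passed an adjusted p under 0.05 and black lines give list medians, from -0.24 for mGluR1 and calcium signaling to 0.81 for choroid plexus, where no member passed.

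A pair of the lincRNAs that fell lay near the edited gene. Of 86 tested genes within 5 Mb of Atxn1 on chromosome 13, 2 were called (2.33%, against 0.839% of all genes), Gm5083 at chr13:44121167-44125179 and A330076C08Rik at chr13:44185760-44216487, about 1425 and 1333 kb away. Gm5083 had 19.9, 18.4, 17.6 and 18.2 CPM in WT mice and 10.1 to 14.1 in carriers (median 12.4). A330076C08Rik had 3.80, 3.78, 4.38 and 4.36 CPM in WT mice and 1.69 to 2.71 in carriers (median 2.28). In both genes the carriers of every genotype lay below the WT mice. All carriers share the DNA linked to the expanded allele, so that linkage and the allele itself cannot be told apart in these groups.

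Other called genes that stood within 100 kb of each other also fell, a distance chosen with the calls known. Of all 185 called genes 141 fell, and whether neighbours shared a direction more often than other called genes was not tested. On chromosome 5 the neighbouring called genes were Lhx5, Tpcn1, Rasal1 and Dtx1, the last pair being 605 bases apart. Rasal1, a Ras GTPase-activating protein, had 21.8 to 26.8 CPM in WT mice and 11.3 to 20.0 in carriers (log2 fold change -0.79 ± 0.14, adjusted p = 0.0189, edgeR). Nfkb2 and Psd overlap by 298 bases on opposite strands of chromosome 19, and fragments that fit both genes were counted for neither. Slc6a6 and Grip2, Trcg1 and 1700017B05Rik, and Rnf123 and 4930447F24Rik were the remaining pairs.

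Capicua octamers (TGAATGAA or TGAATGGA, on either strand, which can overlap each other) were searched from 250 bases before to 50 after the RefSeq start. They were found in 2 of the 120 called genes with a promoter in the table (1.67%) and in 281 of 13555 tested genes (2.07%). By direction they were in 1 of 93 genes that fell (1.08%) and 1 of 27 that rose (3.7%). The matches are shown with 26 bases on each side and the octamers in capitals, on the minus strand of GRCm38.p6, which both genes share. Dtx1, a ubiquitin ligase of the Notch pathway, holds 2 overlapping matches in chr5:120711855-120711918, beginning 223 bases before its start, and Pde1c, a calcium-dependent phosphodiesterase, holds 1 in chr6:56362962-56363021, at 185 bases.
Dtx1: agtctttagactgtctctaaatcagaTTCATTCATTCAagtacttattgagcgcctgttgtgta
Pde1c: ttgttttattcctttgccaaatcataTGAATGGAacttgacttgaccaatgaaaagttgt
Dtx1 had a log2 fold change of -0.20 (adjusted p = 0.0393) and Pde1c of 0.21 (adjusted p = 0.0474, edgeR).

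The WT mice left out, which belong to the other inferred batch, differed from the 4 WT mice used, in part on the carriers' side. In 7 of the 15 genes past the study thresholds all 4 of them lay beyond the 4 WT mice in the direction of the carriers, and in 2 beyond them in the opposite direction. For the 185 called genes these numbers were 85 (45.9%) and 14 (7.57%), and for all tested genes, each in its own direction, 32.6% and 14.9%. Myo15 ran from 1.72 to 2.91 CPM in those mice, below most carriers, A830018L16Rik from 13.3 to 16.8, Synpr from 101 to 118 and Il20rb from 41.2 to 44.8. The rest of the 7 were 4930447F24Rik, the gene with the lowest p, Prom2 and Tssk5. Among genes short of the study thresholds, Gpr85, Ap1s2, Lrrc4c, Cd200, Hsd11b1, Stap2 and Slc16a11 also had all 4 mice on the carriers' side. Nab2, Csmd3, Gm3510, Grik2 and Mmp17 did not. For Gm5083 (19.6 to 22.5 CPM) and A330076C08Rik (4.75 to 5.85) they lay above the WT mice used, away from the carriers. For Clstn2, Chrna3, Chrnb4, Kcnb2, Rprm and Rprml they did not all lie to either side. Of the channel and signaling genes that fell, Plcb3 (64.5 to 77.5 CPM), Cacna2d2, Kcna2 and Kcnc1 also had all 4 of these mice on the carriers' side, and Camk2b and Igfbp5 (244 to 296 CPM) did not. The other batch holds no carrier, so it gives no contrast of its own.

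The number of calls rested strongly on single WT mice. Without WT replicate 1, 2, 3 or 4 it was 29, 18, 46 or 138 in place of 185 at an adjusted p under 0.05, and without a single carrier 85 to 253. Of the 15 genes past the study thresholds, Chrnb4, Rprm, Il20rb, Tssk5 and Rprml had an adjusted p over 0.05 without WT replicate 2 (0.0512 to 0.0689, edgeR), the latter pair also without WT replicate 1. At the study thresholds 4, 4, 5 and 9 of the 15 genes were kept without the respective WT mouse. In all 16 of these fits 17 genes were called at an adjusted p under 0.05, namely Camk1d, Prom2, Mmp17, Cpeb1, Chrna3, Clstn2, 4930447F24Rik, Nab2, Myo15, Pitpnm3, Gm5083, A330076C08Rik and Synpo among the genes that fell, and A830018L16Rik, Kcnb2, Gpr85 and Synpr among those that rose. Camk1d, Cpeb1 and Pitpnm3 were named by this count, after their values were seen. Camk1d, a calcium/calmodulin kinase, had 80.5 to 83.4 CPM in WT mice and 58.2 to 72.8 in carriers (log2 fold change -0.30, adjusted p = 0.00405, edgeR). Cpeb1, which regulates translation at synapses, had 50.5 to 54.8 and 37.5 to 48.8 CPM (log2 fold change -0.32, adjusted p = 0.0046).

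**Figure D5:**
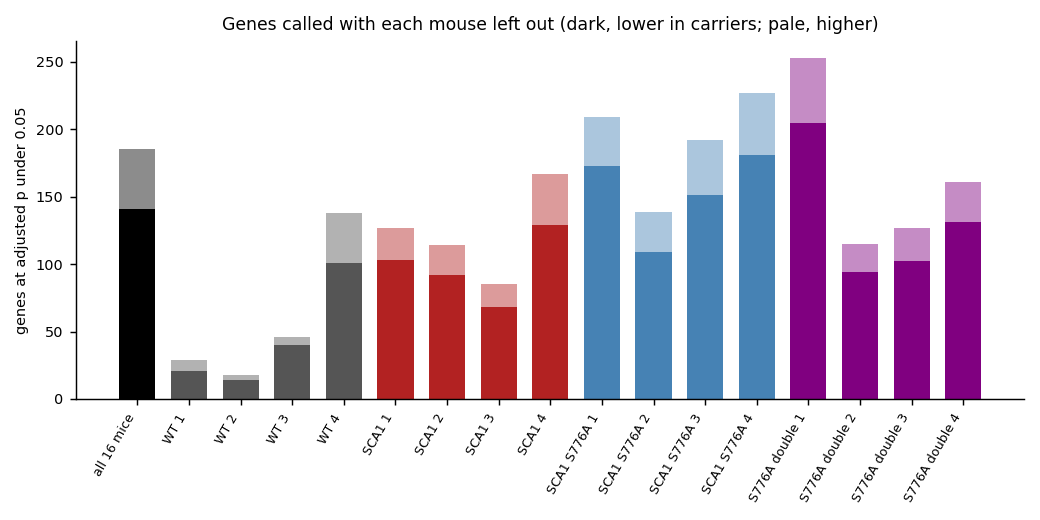
Bars give the number of genes at an adjusted p under 0.05 with all 16 mice (185) and with each mouse left out, dark for genes lower and pale for genes higher in carriers. The 4 bars without a WT mouse reach 18 to 138 genes and the 12 without a carrier 85 to 253.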

How the data were processed

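Each library held the cerebellar RNA of 1 mouse aged 6 weeks. The deposited values are fragment counts per gene that the authors obtained with STAR 2.7.2d on GRCm38.p6, after trimming by Trimmomatic 0.36 and before any normalization or batch correction. The annotation release is not given in the sources used here. Of 54232 gene identifiers, 54165 matched GENCODE M21. The batch of a library was inferred from its share of fragments outside genes, with a limit of 8%.

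Unstranded counts of the 16 libraries were filtered with filterByExpr (22054 genes kept), scaled by TMM (factors 0.9754 to 1.036) and tested in R 4.3.3 with edgeR 4.0.16 (robust quasi-likelihood, carrier or WT as the factor, p-values adjusted by Benjamini-Hochberg over all genes). The common biological coefficient of variation was 12.33%. Differences among carriers came from a fit with 4 genotypes. A standard error is the log2 fold change divided by the square root of F.

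Named genes were the 12 with the lowest p in each direction (those past the study thresholds first), Atxn1, Atxn1l, Cic and Calb1, and up to 3 called members of each gene list or else that of lowest p. Added to these were the 5 called genes with the lowest p for differences among carriers, and the 5 past the study thresholds with the highest p there. The comparison, lists and rules were chosen with earlier results of these data known. Tested on simulated data of 21785 genes, the comparison of carriers with WT recovered 75% of genes changed by 0.5 and 94% of those changed by 1 on the log2 scale, with 7 unchanged genes called. Alternatives were other scalings, filters, tools (DESeq2 1.42.0, sva 3.50.0), strands, covariates and sets of mice. RefSeq promoters were found for 120 of the 185 called genes. Some genes and a feature beyond the mouse genes are not reported here.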

Additional observations from a re-analysis of the deposited data

Results flagged for a closer look

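A mouse stood apart from the other 3 of its genotype by Dixon's criterion in 10 of 228 groups of 4, where chance gives about 1 in 20, or 11.4. In CPM these were Prom2 in WT replicate 4 (6.03, others 6.45 to 6.51), Il20rb in SCA1 replicate 2 (34.3, others 42.0 to 43.2), Gpr85 in SCA1 S776A replicate 3 (56.9, others 59.9 to 60.4), Cic in WT replicate 3 (228, others 242 to 244), Spred3 in WT replicate 2 (30.1, others 27.1 to 27.5), Kcnc1 in SCA1 S776A replicate 4 (679, others 783 to 793), Aif1 in SCA1 replicate 3 (1.54, others 1.02 to 1.11), Hspa8 in S776A double replicate 1 (1629, others 1419 to 1442) and Slc16a11 in SCA1 replicate 2 (89.4, others all 104). The mitochondrial share of gene counts was 3.97% in SCA1 replicate 4 and 3.32% to 3.40% in the other SCA1 mice.

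Gm15083, an antisense transcript on chromosome 6, differed among the carrier genotypes (adjusted p = 0.00502, edgeR's quasi-likelihood test), though no gene passed without SCA1 replicate 1 or SCA1 replicate 2, nor on the counts of 1 of the strands (890, 1041 and 1062 genes at an unadjusted p under 0.05). Its level was 3.86, 3.12, 3.23 and 2.66 CPM in the 4 WT mice, whereas SCA1 mice had 0.982, 1.03, 1.28 and 1.19. The levels of SCA1 S776A mice were 2.96, 2.10, 2.50 and 3.21, and those of S776A double mice were 2.22, 2.25, 2.90 and 2.33. SCA1 mice alone lay below all others. The log2 fold changes over the shared WT mice were -1.52 in SCA1, -0.26 in SCA1 S776A and -0.41 in S776A double mice, and the pooled change did not pass (adjusted p = 0.35). The counts are unstranded, so fragments that fit both this gene and a gene on the other strand were counted for neither. The strand of the remaining fragments is not known.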

How the results depend on the processing

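The 15 genes past the study thresholds kept their direction under every alternative run, and at least 13 of them kept an adjusted p under 0.05 except without WT replicate 2, where 10 did. Counts moved more. At the study thresholds (11 genes lower and 4 higher) they were 21 and 7 for the mean of the 3 genotypes in the 4-genotype fit, 26 and 10 with DESeq2, 46 and 33 with ComBat-seq then DESeq2 on all 24 libraries, and 6 and 2 without the S776A double genotype. The count lower was 7 with the choroid plexus level as a covariate (chosen after seeing the data), 7 without the SCA1 genotype, 22 without the SCA1 S776A genotype and 22 with no fold minimum, and with an adjusted p under 0.05 and the same fold minimum it was 27, with 9 higher. At an adjusted p under 0.05 (141 lower and 44 higher) the counts were 394 and 183 with DESeq2, 25 and 8 on all 24 libraries with batch as a covariate, 421 and 417 with ComBat-seq, 65 and 24 with the choroid plexus covariate, 35 and 10 without the SCA1 genotype, 236 and 69 without the SCA1 S776A genotype, and 70 and 23 without the S776A double genotype. The count lower was 224 for the 4-genotype mean and 219 with Xist as a covariate. Differences among carriers (1 gene) were 7 without a filter, 34 with DESeq2's likelihood ratio test, 2 and 0 on the counts of either strand (1062 at an unadjusted p under 0.05 for the latter, edgeR) and 2 with the choroid plexus covariate.

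With single mice left out, the counts at the study thresholds ran from 3 to 13 lower and from 1 to 4 higher, at an adjusted p under 0.05 from 14 to 205 lower and from 4 to 48 higher, and among carriers from 0 to 2. Fewer mice can only raise the count without overlap, which ran from 167 to 366 below and from 79 to 292 above. WT replicate 2 gave the lowest counts of calls. Atxn1 passed an adjusted p under 0.05 under 10 alternatives, with 0.0113 in DESeq2.

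No paired analysis was possible because the replicate numbers of the labels only name mice and tie no mouse of one genotype to a mouse of another. Only 4 WT mice enter, and the batch was inferred. Tph2 gave no value with a minimum of 1 CPM.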
